A study of Mus musculus with 2 samples.

Results

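The antioxidant and NRF2 target genes are a list of 36 genes that hold the redox balance of a cell. The list covers the NRF2 system, glutathione synthesis, thioredoxins and peroxiredoxins, superoxide dismutases, catalase, glutathione peroxidases, ferritins and enzymes of the pentose phosphate pathway. A gene entered if at least 1 probe set of the array named it and no other gene, which held for 31 of the 36, out of 18193 genes named in this way. Prdx1 and Ftl1 appeared only on probe sets that named several genes, and for Prdx5, Prdx6 and G6pdx no probe set of their own was found. The signals of these 5 genes were not analysed here, and they enter only the counts of promoter motifs. The rule on probe sets used no signal, but the list itself was chosen with earlier results of these data known.

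The cells were primary osteoblasts, the bone-forming cells, taken from calvariae, the skull caps, of C57BL/6 mice aged 5 days. They were grown for 3 days in medium with serum and then deprived of serum overnight. Treatment lasted 6 h in serum-free alpha-MEM with 1 mM phosphate (control) or in the same medium brought to 4 mM with a sodium phosphate stock, both at pH 7.2, so sodium rose with phosphate. Each condition was measured on 1 Affymetrix array, so no test between conditions was possible, no p-value is given, and every difference describes these 2 arrays. The labels do not say how many animals were pooled. The signals are MAS5 intensities, on a linear scale in arbitrary units, and the number of arrays limits their precision.

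NRF2, encoded by Nfe2l2, is a transcription factor that is held in the cytoplasm and marked for destruction by KEAP1. Oxidants and electrophiles modify KEAP1, NRF2 then accumulates, pairs with a small Maf protein and binds antioxidant response elements in the promoters of its target genes. The targets make glutathione and thioredoxin usable as reducing agents, remove quinones and haem, store iron and supply NADPH. Superoxide dismutases turn superoxide into hydrogen peroxide, which catalase, peroxiredoxins and glutathione peroxidases then reduce.

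A set of stretches of promoter is shown because their genes were among those with higher signals in 4 mM phosphate. The stretches also contain the letters TGANNNNGC, a loose form of the antioxidant response element, or those of the related AP-1 site. They are a selection. Sod1 and Pgd, also higher, and Taldo1, Tkt, Txn2 and Keap1, all lower, hold the letters TGANNNNGC too and are not shown. The stretches shown come from a choice made on the signals. Their source is the RefSeq promoter table of GRCm38.p6, which holds the 250 bases before and the 50 after a gene's start. It contained 31 of the 36 genes, all but Gsr, Hmox1, Gclc, Sod3 and Prdx6. Each is written 5′ to 3′ on the strand of the gene, with the matching letters in capitals.
Srxn1: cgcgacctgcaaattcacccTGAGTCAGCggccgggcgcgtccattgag
Osgin1: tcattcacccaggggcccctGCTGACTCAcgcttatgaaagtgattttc
Txnrd1: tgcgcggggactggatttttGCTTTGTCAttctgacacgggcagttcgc
Nfe2l2: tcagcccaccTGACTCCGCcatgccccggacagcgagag
Gclm: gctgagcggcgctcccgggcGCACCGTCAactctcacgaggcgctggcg
Glrx: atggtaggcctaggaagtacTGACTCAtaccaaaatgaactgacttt
The stretch of Srxn1 lies at chr2:152105459-152105507 on the plus strand and that of Osgin1 at chr8:119437028-119437076 on the plus strand. That of Txnrd1 lies at chr10:82859094-82859142 (plus), that of Nfe2l2 at chr2:75704875-75704913 (minus), that of Gclm at chr3:122245403-122245451 (plus) and that of Glrx at chr13:75839767-75839813 (plus). The capitals of Srxn1 begin 45 bases before the start of the gene. Those of Osgin1, Txnrd1 and Gclm, which match TGANNNNGC on the opposite strand, begin 99, 92 and 134 bases before it.

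Of the 31 genes, 30 were measured, meaning that the probe set with the highest mean signal exceeded the signal floor of 21.5 on at least 1 array, and 29 were above it on both. The floor is the median of all signals on both arrays, and lower values were raised to it. In 4 mM phosphate, 10 of the 30 genes (33.3%) were higher by 1.5-fold or more and 3 (10.0%) were lower by as much, against 7.25% and 12.1% of all 12241 measured genes. At 2-fold, 2 genes were higher and none was lower, against 2.28% and 2.92% of all measured genes. The median log2 ratio, phosphate over control, was 0.18 for the 30 genes and −0.06 for all measured genes. The 10 higher genes were Srxn1, Nfe2l2, Hmox1, Gsr, Osgin1, Sqstm1, Txnrd1, Gclc, Glrx and Sod2, and the 3 lower genes were Nqo1, Cat and Txnrd2. Osgin1, below the floor in the control, entered only through the phosphate array and had to be higher. Among the 29 genes above the floor on both arrays, 9 were at least 1.5-fold higher and 3 lower. The shares of all genes above it on both were 6.69% and 11.9%. With the 27 genes whose dimmer signal was 100 or more, 9 were at least 1.5-fold higher and 2 lower, against 4.97% and 7.95% of 8090 genes of that brightness.

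The only measure of error is technical. Where a gene had several probe sets, the log2 ratios of its brightest pair scattered by 0.38 per probe set (SD) if the dimmest signal was under 100, 0.25 if it was from 100 to 400, and 0.16 for brighter pairs. These values hold no variation between cultures, and no difference between the arrays that both probe sets of a gene share. All 24 probe sets for poly-A spikes, bacterial RNAs that pass through labelling with the sample, had the higher signal in phosphate, by a median log2 ratio of 0.46. With the spikes set to equal signal, every log2 ratio given here falls by 0.46 and the median of all measured genes becomes −0.52. The ratios are therefore best read relative to other genes.

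**Figure D1:**
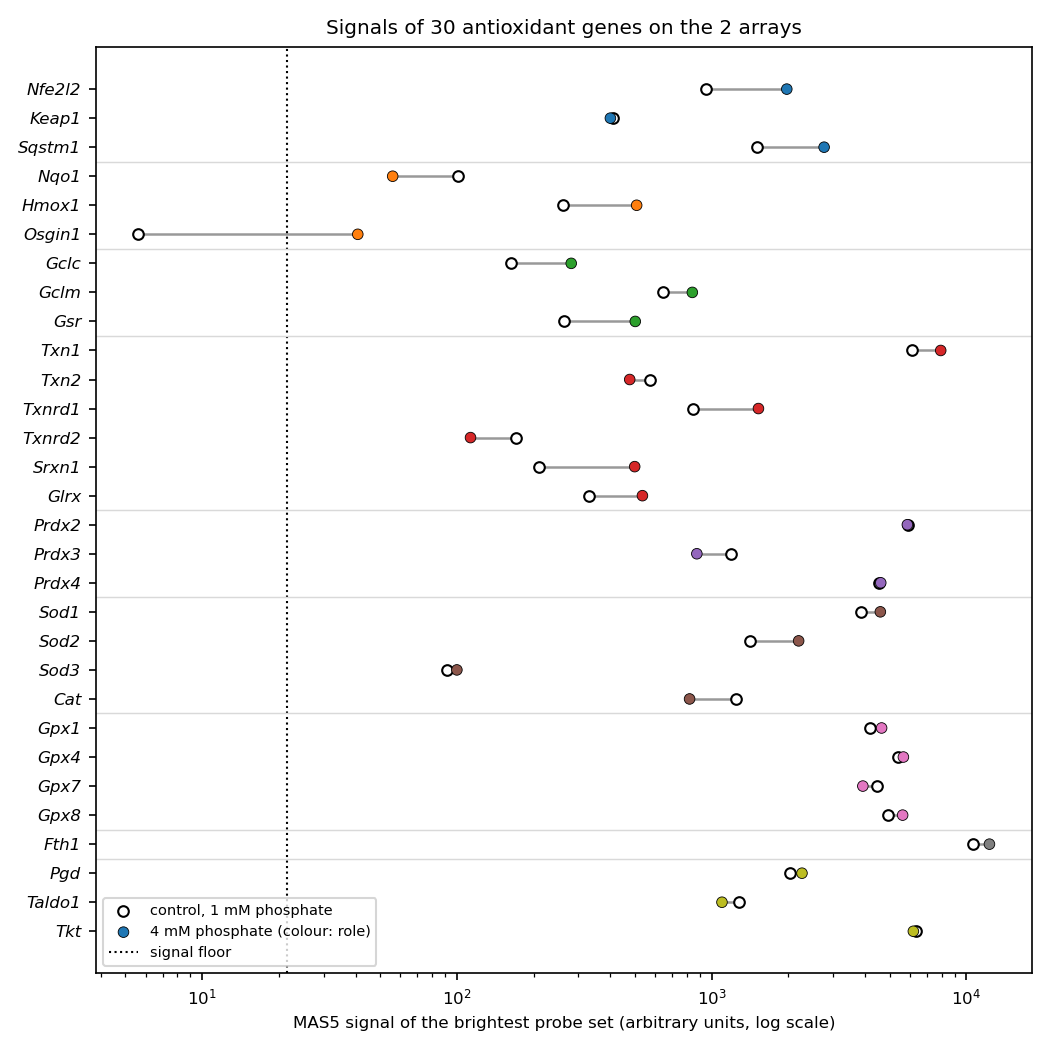
MAS5 signal (x axis, log scale, arbitrary units) of the brightest probe set of each of 30 genes (y axis) on the control array (open circles) and the 4 mM phosphate array (filled circles, coloured by role), with the signal floor of 21.5 as a dotted line. Signals should be compared within a row only. Nfe2l2, Sqstm1, Hmox1, Gclc, Gsr, Txnrd1, Srxn1 and Glrx lie to the right of their control, and Nqo1, Txnrd2 and Cat to the left.

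Among the regulators, Nfe2l2 was at 948 in the control and 1972 in 4 mM phosphate, a 2.08-fold higher signal. Its log2 ratio of 1.06 exceeded that of 98.0% of measured genes, and its other probe set lay below the floor on both arrays. Keap1, the gene of the inhibitor of NRF2, had 411 and 400. Its log2 ratio was −0.04, with −0.48 on its dimmer probe set. Sqstm1 encodes p62, an autophagy receptor that binds KEAP1 and is itself a target of NRF2. It had 1500 and 2762, a log2 ratio of 0.88. Its dimmer probe set, below the floor in the control, was at least 1.46-fold higher and had to be higher. The gene of the transcription factor and that of p62 were thus both higher in phosphate, while the brighter probe set of the inhibitor differed by less than the technical spread.

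The 3 genes Hmox1, Osgin1 and Nqo1 did not share a direction. Hmox1, which encodes the inducible haem oxygenase, had signals of 261 and 508, a log2 ratio of 0.96 on its only probe set. Osgin1, an NRF2-induced growth inhibitor gene, had 40.8 in phosphate against 5.62, below the floor, in the control, and was higher by at least 1.90-fold. Osgin1 counted as measured only through the phosphate array, so it had to be higher. Nqo1, the quinone reductase gene often used as a readout of NRF2, went the other way, with 101 in the control and 56.0 in phosphate. Its log2 ratio was −0.85 on its only probe set, where the technical standard deviation at this brightness was 0.38, and only 4.90% of measured genes had a lower ratio.

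The measured genes of glutathione synthesis and recycling were all higher. Gclc, the catalytic subunit of glutamate-cysteine ligase, which makes the first bond of glutathione, had 163 and 281, a log2 ratio of 0.79, with 0.49 on its other probe set. Gclm, the modifier subunit of the same enzyme, had 644 and 840, a log2 ratio of 0.38, with 0.28 on the other probe set. Gsr, the reductase that regenerates glutathione, had 264 and 501, which is 1.90-fold higher, with a log2 ratio of 0.73 on the other probe set. Against the spikes, the ratio of Gclm turned to −0.08, whereas Gclc and Gsr kept 0.33 and 0.46. Slc7a11, the cystine importer that feeds glutathione synthesis, was below the floor on both arrays and both probe sets, with signals of 5.26 and 6.31 on one and 3.52 and 12.7 on the other, and gives no ratio.

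Srxn1 had the highest ratio among the 29 genes above the floor on both arrays, although with the median over probe sets it was at 0.75, below Nfe2l2 at 1.06. Osgin1, known only as a bound, cannot be ranked against it. Srxn1 encodes sulfiredoxin, which repairs peroxiredoxins whose active-site cysteine has been over-oxidised. Its brightest probe set had 209 in the control and 499 in phosphate, 2.38-fold higher, a log2 ratio above that of 98.6% of measured genes. Its other 3 probe sets had log2 ratios from 0.65 to 0.77, so all 4 exceeded 1.5-fold. The brightest probe set thus had a higher ratio than the other 3, of which the dimmest had signals of 22.9 and 39.1. The technical standard deviation was 0.38 at signals under 100, and it is that of 1 probe set, not of a difference between 2.

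On the brightest probe sets, the cytosolic genes Txnrd1 and Txn1 were above 0 and the mitochondrial genes Txnrd2 and Txn2 below it. Txnrd1, the cytosolic thioredoxin reductase, had 843 and 1526, a log2 ratio of 0.86. A dimmer probe set, below the floor in the control, was at least 1.76-fold higher and had to be higher. The remaining one lay below the floor on both arrays. Txnrd2, the mitochondrial counterpart, had 171 and 113, a log2 ratio of −0.59 on its brightest probe set. All 4 of its probe sets were below 0, between −0.59 and −0.03, with a median of −0.25. The ratios of the brightest probe sets of the 2 reductases differed by 1.45 on the log2 scale, the widest gap among the 4 pairs compared across compartments.

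Txn1, the cytosolic thioredoxin, had 6141 and 7925, a log2 ratio of 0.37, with 0.08 on a probe set close to the floor. Txn2, the mitochondrial thioredoxin, had 572 and 477, a log2 ratio of −0.26, with its 3 probe sets between −0.26 and −0.13. Of all measured genes, 30.3% had a lower ratio than Txn2. Against the spikes Txn1 was at −0.10, while the gap of 0.63 between Txn1 and Txn2 cannot change with a single scaling factor. The gap was narrower after corrections that vary with brightness. Quantile normalization gave 0.23 for Txn1 and −0.23 for Txn2, and the loess correction 0.26 and −0.21. Glrx, the gene of glutaredoxin 1, which uses glutathione to reduce protein disulfides, had 331 and 535, a log2 ratio of 0.69, and 0.49 on its other probe set.

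**Figure D2:**
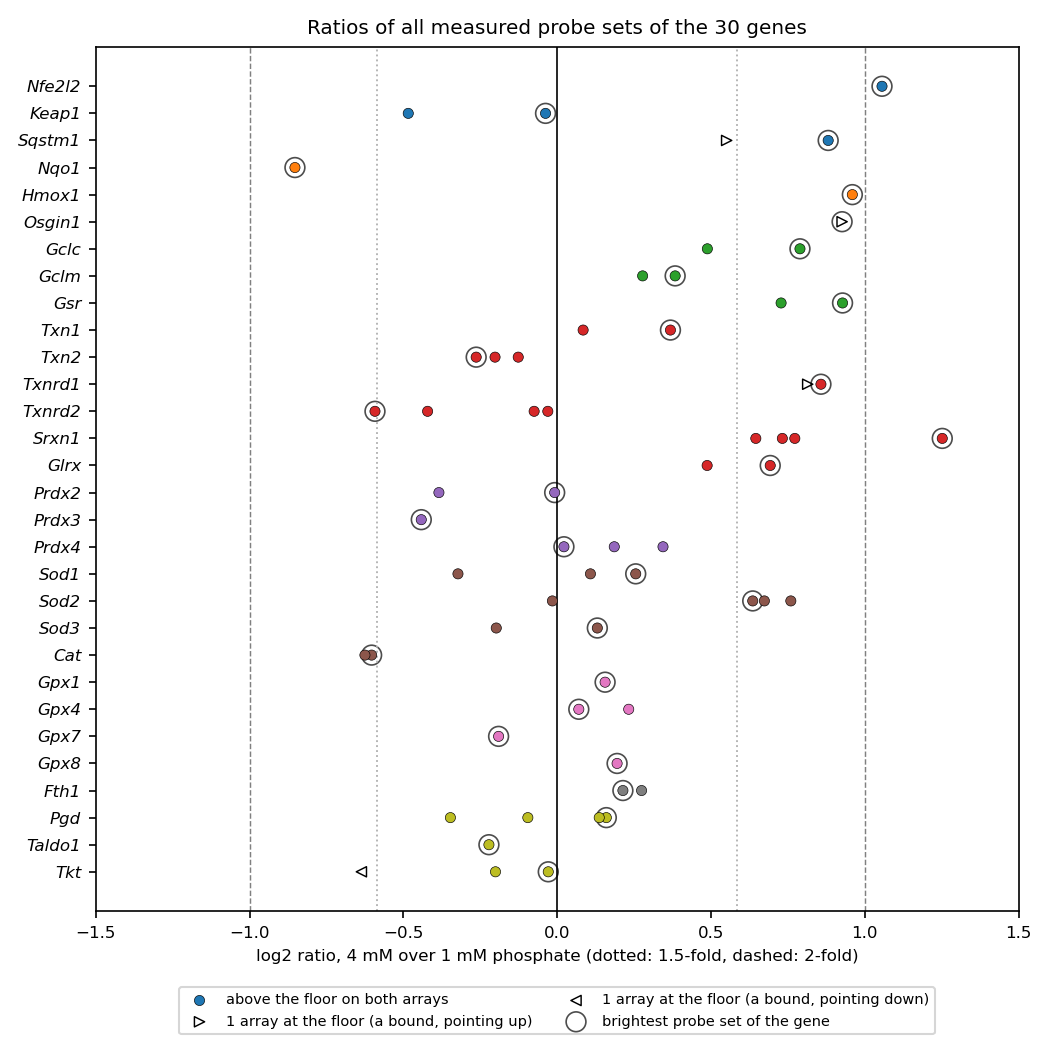
Log2 ratio of 4 mM over 1 mM phosphate (x axis) for all 63 measured probe sets of the 30 genes (y axis), with the brightest probe set of each gene ringed and bounds drawn as open triangles pointing away from 0. All 4 probe sets of Srxn1 lie beyond 1.5-fold (dotted lines), all 4 of Txnrd2 lie below 0, and the probe sets of Pgd and Sod1 fall on both sides of 0.

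None of the 3 measured peroxiredoxin genes, whose proteins reduce hydrogen peroxide with electrons from thioredoxin, was beyond 1.5-fold. Prdx2, a cytosolic member, had 5897 and 5863, a log2 ratio of −0.01, with −0.38 on its dimmer probe set. Prdx4, the member of the endoplasmic reticulum, had 4540 and 4609, with log2 ratios between 0.02 and 0.34 over 3 probe sets. Prdx3, the mitochondrial member, had 1188 and 875, the lowest log2 ratio of the group at −0.44 against a technical standard deviation of 0.16. Against the spikes all 3 lay between −0.91 and −0.44.

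The superoxide dismutases and catalase did not move together. Sod2, the mitochondrial manganese superoxide dismutase, which is also known as a target of NF-kB, had 1413 and 2195, a log2 ratio of 0.64. Of its other 3 probe sets, 2 gave 0.67 and 0.76, and the dimmest, close to the floor, gave −0.02. Sod1, the cytosolic enzyme, had 3848 and 4593, a log2 ratio of 0.26, with a dimmer probe set at −0.32. Sod3, the secreted enzyme, had 91.3 and 100.0, with log2 ratios of 0.13 and −0.20 on its 2 probe sets. Sod2 was thus the exception among the 4 mitochondrial genes compared (Txn2, Txnrd2, Prdx3 and Sod2), of which the other 3 were below 0. So were 6847 of all 12241 measured genes.

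Cat, the catalase of peroxisomes, had 1244 in the control and 819 in phosphate. Its log2 ratio was −0.60, and its other probe set, with 1092 and 708, gave −0.63. Cat was the only one of the 21 genes with at least 2 measured probe sets for which every one was lower by 1.5-fold or more, against 2.91% of 5606 such genes. In the other direction 3 of the 21 were higher by that much on every probe set, against 3.01%. These were Srxn1, Gsr and Txnrd1. Txnrd1 rests in part on a bound, since a probe set counted only through the phosphate array and had to be higher.

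The 4 measured glutathione peroxidase genes lay within 1.5-fold. Gpx1, the main cytosolic enzyme, had 4170 and 4645, and Gpx4, which reduces lipid peroxides in membranes, had 5387 and 5656. The log2 ratios of Gpx1 and Gpx4 were 0.16 and 0.07. Gpx7 and Gpx8, both of the endoplasmic reticulum, had 4475 and 3921, and 4909 and 5618, with log2 ratios of −0.19 and 0.19. The technical standard deviation at this brightness was 0.16, and the 3 ratios above 0 lay below it once the spikes served as reference.

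Fth1, the ferritin heavy chain that stores iron, had 10617 and 12311, with log2 ratios of 0.21 and 0.27 on its 2 probe sets. The brighter was at −0.25 against the spikes, at 0.03 after quantile normalization and at 0.06 after the loess correction. The enzymes of the pentose phosphate pathway, which supply NADPH, were close to 0. Pgd had 2025 and 2262, a log2 ratio of 0.16, but its 4 probe sets ran from −0.35 to 0.16. Taldo1 had 1280 and 1098 and Tkt 6316 and 6189, with log2 ratios of −0.22 and −0.03. The other probe sets of Tkt gave −0.20 and, with the phosphate signal below the floor, a value lower by at least 1.55-fold, which could only be lower. All 3 genes are known targets of NRF2, and none was beyond 1.5-fold on its brightest probe set. Against the spikes all 3 were below 0.

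**Figure D3:**
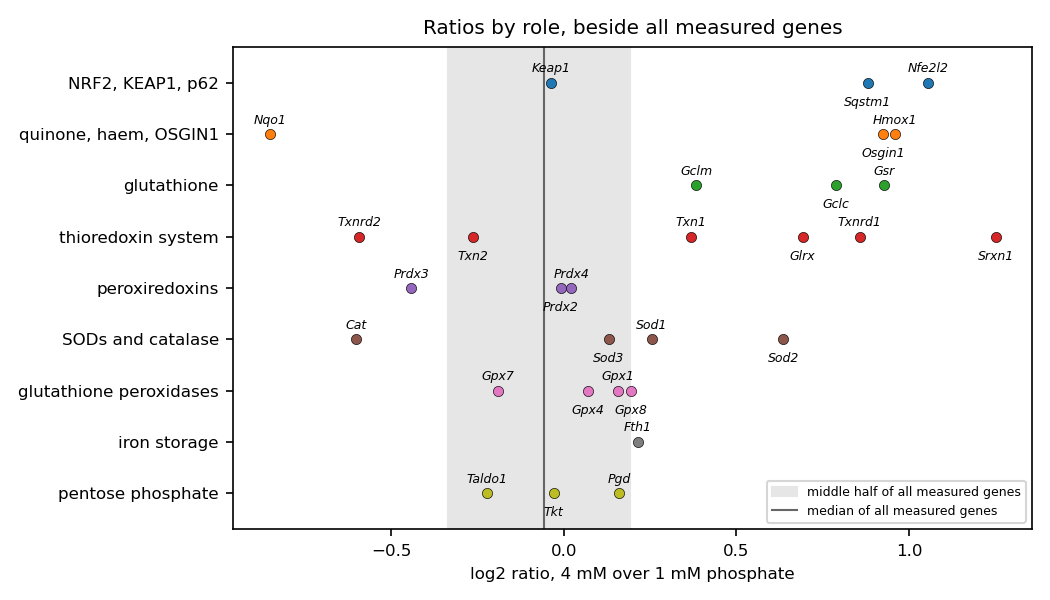
Log2 ratio of 4 mM over 1 mM phosphate (x axis) for the brightest probe set of each of 30 genes, 1 point per gene, in rows by role, with the middle range (25th to 75th percentile) of all 12241 measured genes shaded and their median of −0.06 as a line. The 3 glutathione genes all lie to the right of the shaded band, whereas the 3 peroxiredoxins, 4 glutathione peroxidases and 3 pentose phosphate genes lie within it or close to its edges, apart from Prdx3 at −0.44.

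Over these 21 genes, the measured probe sets lay entirely above 0 for 11, entirely below 0 for 6 and on both sides for 4. The 4 were Sod1, Sod2, Sod3 and Pgd. Of the 11, Sqstm1 and Txnrd1, and of the 6, Tkt, each had a probe set above the floor on 1 array only. The sign of such a probe set was fixed in advance. All 70 probe sets of the 31 genes break down into 59 above the floor on both arrays, 4 on 1 array only and 7 on neither.

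The promoter table allowed a count of motif letters, each searched on both strands within the 300 bases. TGANNNNGC, a loose form of the antioxidant response element, was present in 15 of the 31 genes of the list that the table holds (48.4%). It was present in 45.0% of all 27025 genes of the table. The AP-1 site TGANTCA, the binding site of Fos and Jun proteins, was present in 4 (12.9%), against 9.0% of all genes. The stricter forms TGACNNNGC and TGANTCAGC, added after the ratios were seen, were present in 8 (25.8%) and 3 (9.7%), against 14.0% and 1.4%. TGANTCAGC contains the AP-1 site and is also a case of TGANNNNGC, so these counts overlap. Its 3 genes were Srxn1, Osgin1 and Prdx1. Of the measured genes in the table, which leaves out Hmox1, Gsr, Gclc and Sod3, 4 of 11 with TGANNNNGC and 3 of 15 without it were at least 1.5-fold higher, with median log2 ratios of 0.26 and 0.07. A match is a run of letters in this window and does not show that a factor binds there.

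Other genes of the pathway were taken from 10 lists of functions around NRF2, 121 genes outside the 36 with a probe set of their own. Some genes are in 2 lists. Of 112 measured, 14 (12.5%) were higher by 1.5-fold or more and 11 (9.8%) lower, against 7.25% and 12.1% of all measured genes. Those shares over all genes are also the background for the counts of each single list below. The median log2 ratio of the 112 genes was −0.08. The list of partners and repressors of NRF2 had 4 of 12 beyond 1.5-fold upward and 1 downward, with a median of 0.10. Maff, Mafg and Mafk encode the small Maf proteins with which NRF2 pairs, and Bach1 a repressor that competes with NRF2 for the same elements. Maff had 78.2 and 349, a log2 ratio of 2.16. Mafg had 314 and 611, a log2 ratio of 0.96, with 1.10 on its other probe set. Mafk and Bach1, named after their values were seen, had log2 ratios of 0.90 and 0.74. Dpp3, a peptidase that binds KEAP1, and Gsk3b, a kinase that marks NRF2 for destruction, had the lowest ratios of the list at −0.69 and −0.21. The 6 measured probe sets of Gsk3b ran from −0.31 to 0.37.

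The list of further NRF2 targets had a median of −0.20, and 2 of 18 were beyond 1.5-fold in each direction. Ugdh, which makes UDP-glucuronate, had 1827 and 3550, a log2 ratio of 0.96, and Akr1b8, an aldo-keto reductase gene, was at 0.83. Aldh1a1, a retinaldehyde dehydrogenase gene, had 332 and 119, a log2 ratio of −1.48, and Idh1, the cytosolic NADP-dependent isocitrate dehydrogenase gene, had 3917 and 2243, a log2 ratio of −0.80. Further glutathione enzymes had a median of −0.30, with 1 of 10 beyond 1.5-fold in each direction. Ggt5 was highest at 0.64 and Gpx3 next at 0.15, and Oplah and Chac1, a glutathione-degrading enzyme gene, were lowest at −0.97 and −0.45.

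None of 11 further genes of the thioredoxin system was beyond 1.5-fold, with a median of −0.09. Txnl4a and Glrx5 were highest at 0.40 and 0.21, and Txnip, the inhibitor of thioredoxin, and Glrx2 were lowest at −0.58 and −0.19. The 3 measured probe sets of Glrx2 ran from −0.32 to 0.04. Of 14 further pentose phosphate and NADPH genes, none was at least 1.5-fold higher and 1, Idh1, was lower, with a median of −0.11. Rpia and Tigar were highest at 0.26 and 0.21, and Mthfd1 was the next lowest after Idh1 at −0.57. The other probe set of Tigar gave −0.21.

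Iron handling genes spread widely around a median of −0.13, and 2 of 12 were beyond 1.5-fold in each direction. Slc39a14, a zinc and iron importer gene, had 666 and 1647, a log2 ratio of 1.31, and Slc11a2, another iron importer gene, was at 0.69. Slc40a1, the gene of the iron exporter ferroportin, had 923 and 417, a log2 ratio of −1.15, with −1.01 on its other probe set. Heph, a ferroxidase gene that acts with ferroportin, was at −1.08. The importer gene Tfrc, the transferrin receptor, and the ferrireductase gene Cybrd1, both named after their values were seen, were at −0.51 and −0.39. The 3 measured probe sets of Tfrc ran from −0.51 to 0.26.

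Haem breakdown genes outside Hmox1 had a median of −0.16, with none of 6 at least 1.5-fold higher and 1 lower. Flvcr1, a haem exporter gene, was highest at 0.57, followed by Slc48a1 at 0.01, with −0.29 on its other probe set. Blvra, the biliverdin reductase that acts after haem oxygenase, had 737 and 440, a log2 ratio of −0.74, and the constitutive haem oxygenase gene Hmox2 was at −0.21. Methionine sulfoxide reductases and sestrins had a median of −0.57, with 3 of 7 at least 1.5-fold lower and none higher. Sesn2 was below the floor in phosphate and at least 4.27-fold lower, although its other probe set gave 0.35, and Msrb2 was at −0.75. Msra and Sesn3 were highest at 0.07 and −0.16, although the other probe set of Sesn3 gave 0.81.

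Genes of superoxide sources had a median of −0.10, with 1 of 6 at least 1.5-fold higher. Xdh, the xanthine dehydrogenase gene, had 61.1 and 133, a log2 ratio of 1.12, and Rac2 was at 0.28. Nox4 and Ncf1, genes of NADPH oxidases, were lowest at −0.52 and −0.37. Targets of ATF4, a transcription factor of amino acid stress that shares Slc7a11 with NRF2, had a median of 0.20, and 4 of 24 were beyond 1.5-fold upward and 2 downward. Cebpb and Atf3 were highest at 1.82 and 1.41, and Sesn2 and Psph, at −0.62, lowest. The metal-binding metallothionein genes Mt1 and Mt2 had 480 and 2147, and 368 and 2517, with log2 ratios of 2.16 and 2.78.

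**Figure D4:**
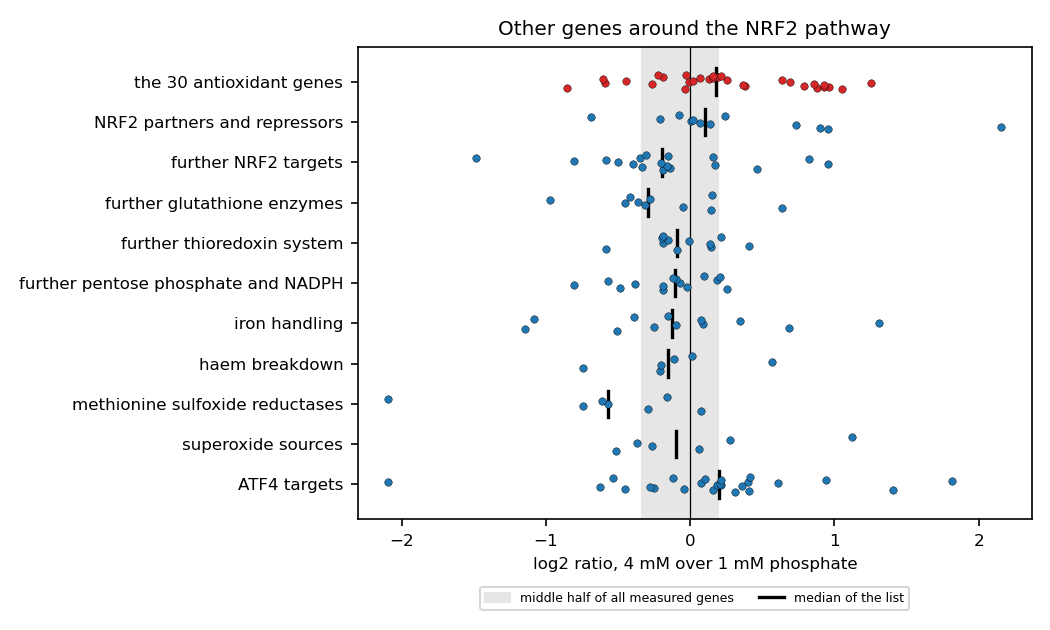
Log2 ratio of 4 mM over 1 mM phosphate (x axis), 1 point per gene, for the 30 antioxidant genes (red) and for the measured genes of 10 further lists around NRF2 (blue), with the median of each list as a black bar and the 25th to 75th percentile of all measured genes shaded. The medians run from −0.57 for methionine sulfoxide reductases and sestrins to 0.20 for ATF4 targets, beside 0.18 for the 30 genes, and single genes such as Maff at 2.16 lie far from the median of their list.

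Markers of other cell types were checked beside these results. All 8 measured osteoblast markers were above the floor on both arrays, of which 4 had higher and 4 lower signals in phosphate, with a median log2 ratio of −0.02. Their summed signal was 62111 and 75570, and Dmp1, at 5505 and 15708, made up most of that difference. Of 15 macrophage markers, 13 were measured, all above the floor on both arrays, with a summed signal of 17015 and 14994 on the control and phosphate arrays. Of these, 12 had lower signals in phosphate and the median log2 ratio was −0.36, with Cd14 the exception at 1.21. This lies beside the lower ratios of Cat, Nqo1, Txnrd2, Slc40a1 and Blvra, and the part of macrophages in those results was not tested. In a bulk sample, fewer cells of a type and less RNA per cell cannot be told apart. Hmox1, Fth1 and Sqstm1 had higher signals in phosphate, and the part of macrophages in these was not tested either. Of 6 measured chondrocyte markers, 3 had higher and 3 lower signals, with a median log2 ratio of 0.07 and summed signals of 10338 and 9615. Of 11 erythroid markers, Hba-a1, Alas2, Slc4a1 and Klf1 were below the floor on both arrays and Epor, at 15.5 and 24.5, barely above it on 1. All 6 endothelial markers were below the floor on both arrays.

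All 13 genes beyond 1.5-fold kept their sign under each of 11 other ways of processing in which they were measured. A change of floor or the filter on both arrays left the ratio of a bright gene as it was, so these settings could not turn its sign. Osgin1 was measured only through the phosphate array, and not under every setting. Their sizes did not stay fixed. Srxn1 ranged from 0.75 to 1.32 in log2 ratio, Nfe2l2 from 0.59 to 1.09 and Hmox1 from 0.50 to 1.03. Cat ranged from −1.07 to −0.57 and Txnrd2 from −1.06 to −0.25. Nqo1 ranged from −1.32 to −0.02, the latter with the floor at 100, since its phosphate signal lies below that floor and its control signal just above it.

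**Figure D5:**
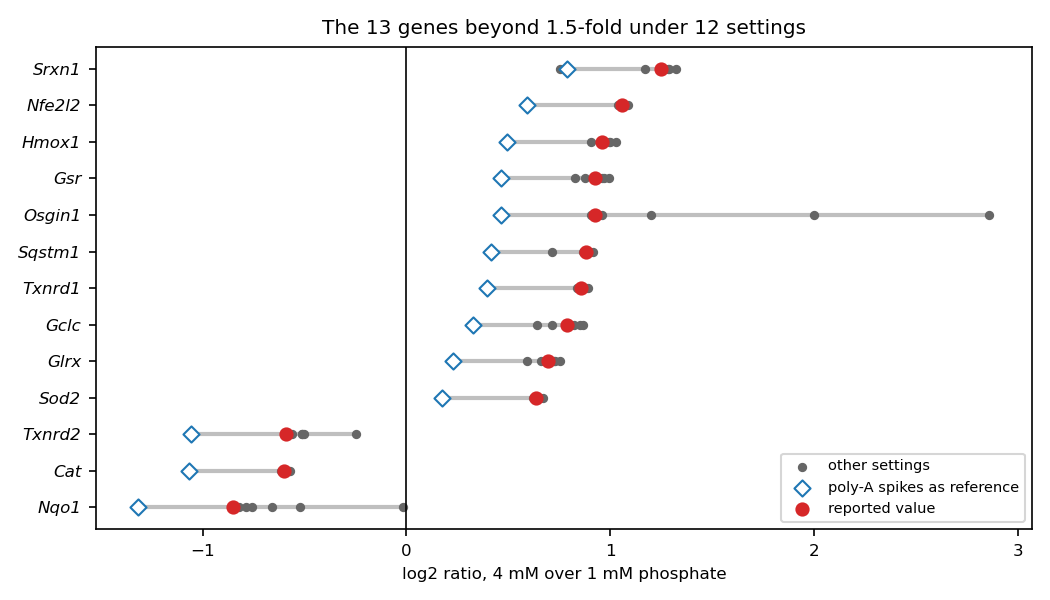
Log2 ratio of 4 mM over 1 mM phosphate (x axis) of the 13 genes beyond 1.5-fold (y axis) as reported (red), with poly-A spikes set to equal signal (blue diamonds) and under the other settings tried (grey), with the range as a grey line. The 10 higher genes stay above 0 and the 3 lower genes below 0 in every setting drawn, with Sod2 at 0.17 for the spikes as reference and Nqo1 at −0.02 for a floor of 100.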

How the data were processed

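The authors deposited a linear MAS5 signal intensity for each probe set of each array, made in GCOS 1.4, per the submitters' processing notes. RNA was labelled with biotin from 100 ng of total RNA, per the labels' protocols. After trimming 2% of probe sets at each end, both arrays had a mean of 200.0, so a change of total mRNA per cell is hidden. MAS5 values of dim probe sets are noisy.

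Of 45037 probe sets other than 64 controls, the annotation named 1 gene for 34945, several for 932 and none for 9160. The symbols of all 31 genes with a probe set of their own matched the RefSeq gene table, which is separate from the promoter table, by Entrez identifier. Signals under the floor of 21.5 were raised to it, log2 ratios were taken as phosphate minus control, and a gene was represented by its probe set of highest mean log2 signal. A ratio with 1 array at the floor is a bound. The code was tested on simulated data (Python 3.11.15, pandas 2.3.3). The alternatives were other floors, a pseudocount, other scalings, the median over probe sets and a filter on both arrays. Any of the 36 genes could be named, and of each other list the 2 highest and 2 lowest. The genes and lists were chosen with earlier results of these data known.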

Additional observations from a re-analysis of the deposited data

How the results depend on the processing

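With the poly-A spikes set to equal signal, the median log2 ratio of the 30 genes became −0.29 (that of all measured genes −0.52), 2 genes were at least 1.5-fold higher and 7 lower, and 0 were at least 2-fold higher and 3 lower. Over all genes this moved the counts at 2-fold from 279 higher and 358 lower to 129 and 1727. The median was 0.11 after quantile normalization and 0.13 after the loess correction. The loess correction and setting the median ratio to 0 each left 1 gene, Nqo1, at least 1.5-fold lower, without Cat and Txnrd2. Without a floor 4 genes were at least 2-fold higher, and with the median over probe sets 1. Without a floor 2126 genes overall were at least 2-fold higher and 1841 lower. The cause of these shifts was not tested. Of 326 other values of single genes, 285 moved by less than the technical standard deviation, 41 by more, and none of a gene beyond 1.5-fold changed sign. Many of the 285 could not move, since a change of floor leaves the ratio of a bright gene as it was. No paired analysis was possible because each group had 1 array, and for the same reason no array could be left out. Signals near the floor limit what can be said of Osgin1, Slc7a11, Nqo1 and Sod3.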
